A study of Homo sapiens with 6 samples.

Results

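The genes described here make cholesterol, control its synthesis through the SREBP transcription factors, and move or store it. They are 28 of the 61517 genes in the count table, chosen by symbol from a fixed list, and all 28 passed the filter on low counts, as did 14051 genes in all. Poly-A RNA was sequenced from THP-1, a line of human monocytic leukaemia cells that was turned into macrophages and driven into pyroptosis, a lytic inflammatory cell death, with LPS and ATP. The tested libraries, 3 in number, came from such cells given ruxolitinib, a JAK1 and JAK2 inhibitor that the treatment label spells Lukotinib, and the 3 control libraries from such cells with the treatment label none. Both groups therefore carried the same differentiation, LPS and ATP, and cells without that stimulation were not analysed here. The drug dose, its timing and the agent that drove differentiation were not stated in the sources used here. The labels do not say whether a group's libraries were separate cultures, so p-values measure the spread between these libraries, which may be technical. THP-1 is a leukaemia line, which limits it as a model of a primary macrophage.

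Cholesterol is built from acetyl-CoA through mevalonate, the isoprenoid diphosphates, squalene and lanosterol. When sterols in the endoplasmic reticulum run low, the escort protein SCAP carries SREBP to the Golgi, where the site-1 and site-2 proteases (MBTPS1 and MBTPS2) release its DNA-binding part, which switches on the genes of the pathway. When sterols are plentiful, INSIG proteins hold SCAP and SREBP back. In macrophages the same sterol pool also feeds lipid droplets and oxysterols, and interferon signalling is known to interact with it.

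Libraries held 18796476 to 19253534 counts with ruxolitinib and 17757595 to 24533979 in control. Pairs of libraries correlated at 0.988 to 0.991 (log2 CPM, across genes) inside a group and at 0.972 to 0.976 across groups. Control replicate 2 had 24798 genes with at least 1 count, against 21126 to 22675 in the other 5 libraries, and it stood above the other 2 control libraries for several genes below, and values without it are given for the 5 genes with the largest such gap. Of 8 macrophage and monocyte markers, 7 could be tested, 6 of them lower and 1, LYZ, higher. Among all genes tested, 16.1% fell and 13.6% rose. The summed level of the 8 markers was 509.6 to 566.9 CPM with ruxolitinib and 1028 to 1067 CPM in control. Most of it came from CD68, at a mean of 198 CPM with ruxolitinib and 424 CPM in control, and CSF1R, at 176 and 392 CPM. The mannose receptor gene MRC1 was near 0 in both groups. T cell markers summed to at most 0.0525 CPM with ruxolitinib and 0.0563 CPM in control, with 3 of 4 genes at 0. B cell markers summed to 1.18 to 1.42 CPM with ruxolitinib and 1.52 to 1.69 CPM in control. For fibroblast markers the sums were 0.735 to 1.24 CPM with ruxolitinib and 0.845 to 1.83 CPM in control. Epithelial markers reached at most 0.107 CPM with ruxolitinib and 0.279 CPM in control. The part of the lower macrophage markers in the results below was not tested, and in bulk RNA fewer cells of a type and less RNA per cell cannot be told apart.

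Most enzymes of cholesterol synthesis were higher with ruxolitinib, and the genes around them moved in both directions. Of the 28 genes, 16 rose (57.1%), 2 fell (7.14%) and 10 did not pass, by edgeR's quasi-likelihood test with Benjamini-Hochberg adjustment over all genes tested and a threshold of 0.05, the test behind every adjusted p below. Among all genes tested, 13.6% rose, 16.1% fell and 29.7% passed in either direction. The median log2 fold change of the 28 was 0.42, where that of all genes tested was -0.01 (positive values mean higher with ruxolitinib). The groups did not overlap for 20 of the 28, 17 of them higher and 3 lower with ruxolitinib, against 44.2% of all genes tested in either direction and 20.5% in the higher direction. The batch numbers of the labels each join a ruxolitinib library and a control library. Within these pairs 17 of the 28 genes were higher and 3 lower in all 3, and 8 were mixed. Groups that do not overlap agree in every pair, so these counts add nothing to those of non-overlap. The share over all genes tested was not computed.

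**Figure D1:**
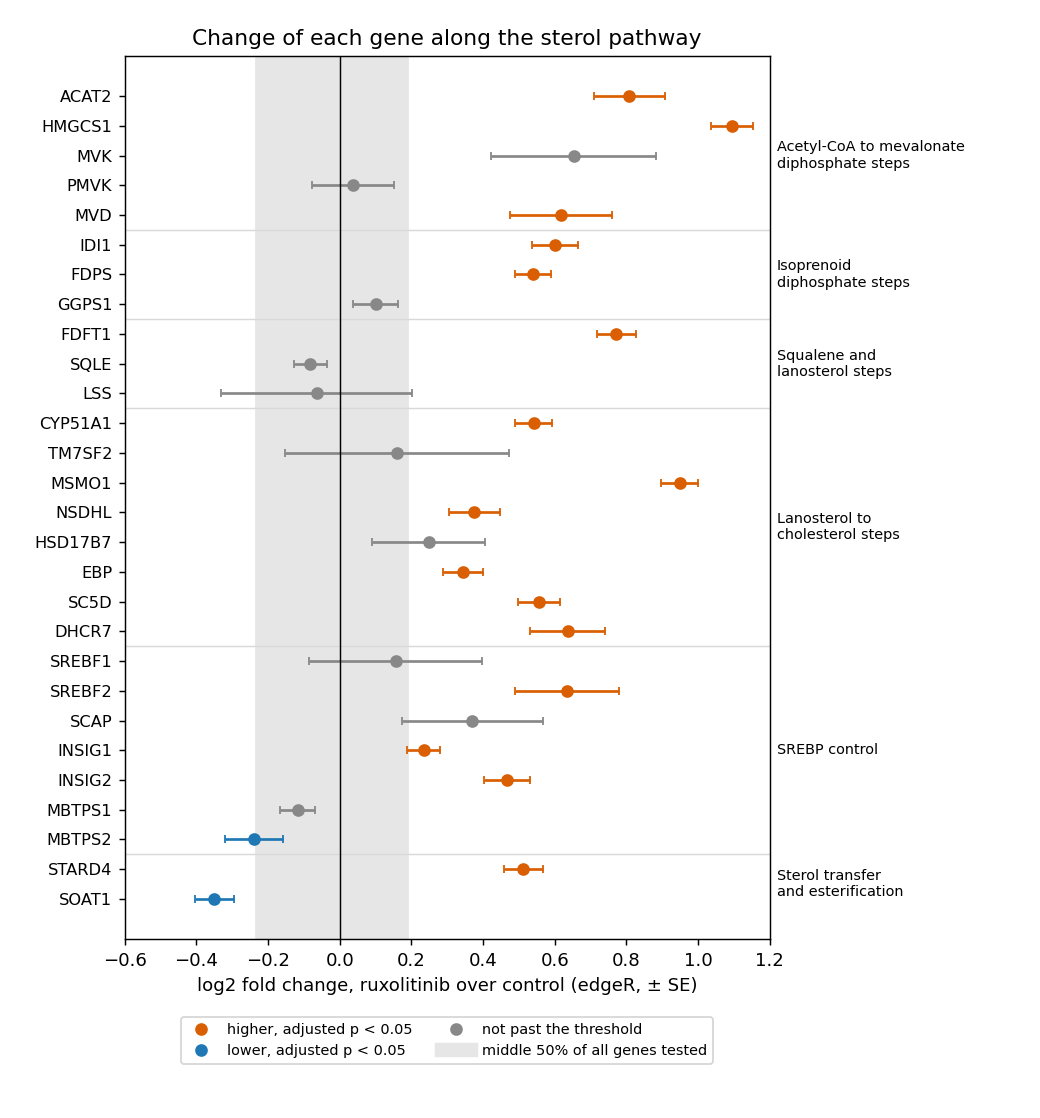
Log2 fold change of each of the 28 genes (x axis, ruxolitinib over control, ± SE, n = 3 libraries per group) in pathway order (y axis), with the interquartile range of all genes tested shaded. HMGCS1 lies farthest right at 1.09 and SOAT1 farthest left at -0.35, and 16 genes are marked higher and 2 lower.

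The promoters of 25 of the 28 genes were found in the RefSeq table of GRCh38.p14, as 250 bases before and 50 after the RefSeq gene start. Those of ACAT2, FDFT1 and SQLE were not, so the motif shares below leave these genes out. For IDI1 the 250 bases (chromosome 10, 1056705 to 1056954) lie away from the GENCODE start at 1049170, which was used for its neighbours. The stretches below belong to HMGCS1 and MSMO1, the enzyme genes with the largest rises, and to SREBF2, which encodes the SREBP of the sterol genes. They are printed 5' to 3' on the gene's strand and end where the outermost GENCODE start begins, with capitals marking CCAAT or its reverse complement (the site read by NF-Y, a known partner of SREBP) and TCACNCCAC (a form of the sterol regulatory element).
HMGCS1, chr5:43313513-43313662, minus strand: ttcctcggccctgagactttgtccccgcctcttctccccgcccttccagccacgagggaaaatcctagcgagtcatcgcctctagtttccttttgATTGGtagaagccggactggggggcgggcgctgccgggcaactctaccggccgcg
MSMO1, chr4:165327419-165327622, plus strand: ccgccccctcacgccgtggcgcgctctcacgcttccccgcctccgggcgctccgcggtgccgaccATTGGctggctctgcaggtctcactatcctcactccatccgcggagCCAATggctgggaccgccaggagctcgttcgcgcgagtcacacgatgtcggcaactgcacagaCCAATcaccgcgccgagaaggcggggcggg
SREBF2, chr22:41832855-41833078, plus strand: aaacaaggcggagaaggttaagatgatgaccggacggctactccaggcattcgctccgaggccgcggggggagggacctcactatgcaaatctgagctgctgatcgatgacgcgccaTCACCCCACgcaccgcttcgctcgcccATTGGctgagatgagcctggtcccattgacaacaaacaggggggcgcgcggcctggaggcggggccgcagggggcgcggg
The sterol element TCACNCCAC, searched on both strands, was found in 1 of the 25 promoters, that of SREBF2, starting 133 bases before the RefSeq start, and in 1.12% of the promoters of 10190 tested genes and 1.13% of all 35116. The shorter CACCCCAC, which lies inside that match, was also in the SREBF2 promoter alone, and in 2.61% of the promoters of tested genes. CCAAT was in 16 of the 25, or 64%, against 37.2% of the promoters of tested genes and 34.6% of all promoters. The GC box GGGCGG, read by SP1, was in 21 of 25, or 84%, against 68.7% and 45%. The STAT-type motif TTCNNNGAA and the interferon-stimulated response element (GAAA repeated after a gap of 2 bases) were in 0 of 25, against 6.58% and 3.07% of the promoters of tested genes. These counts describe letters in a window only.

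The first steps lead from acetyl-CoA to isopentenyl diphosphate, and 3 of the 5 genes measured there rose. Among all genes tested 13.6% rose, and a set of 5 is too small to compare with that share. HMGCS1, the HMG-CoA synthase (chromosome 5, 43289395 to 43313512), had 324, 341 and 298 CPM with ruxolitinib, against 157, 142 and 152 CPM in control. Every ruxolitinib library lay well above every control library, a 2.14-fold change (log2 fold change 1.09 ± 0.06, SE, n = 3 per group, adjusted p = 5.62e-08) that ranked 152nd among the rises of all 14051 genes tested. ACAT2, the cytosolic thiolase that joins acetyl-CoA units, had 19.1, 21.8 and 20.1 CPM with ruxolitinib, against 11.5, 12.9 and 10.3 CPM in control, again without overlap (log2 fold change 0.81 ± 0.10, adjusted p = 7.68e-05). ACAT2 overlaps the far more abundant chaperonin gene TCP1 on the other strand, and the strand setting of the counting was not stated. TCP1 averaged 514.9 CPM with ruxolitinib and 435.7 CPM in control (log2 fold change 0.24), and its part in the ACAT2 count was not tested.

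The kinases MVK and PMVK and the decarboxylase MVD were low, and of these MVD passed. MVD, which decarboxylates mevalonate diphosphate, had 10.7, 10.1 and 10.8 CPM with ruxolitinib, against 5.92, 8.45 and 6.08 CPM in control. It was higher in all ruxolitinib libraries (log2 fold change 0.62 ± 0.14, adjusted p = 0.00611), with control replicate 2 nearest to them, and the change was 0.80 without that library. The call was lost without the batch 1 pair (adjusted p = 0.0913) or the batch 3 pair (0.0720). MVK, mevalonate kinase, had 2.36, 1.72 and 2.20 CPM with ruxolitinib, against 1.18, 1.39 and 1.39 CPM in control, and overlaps MMAB on the other strand. The groups did not overlap, but the adjusted p of 0.0509 (log2 fold change 0.65 ± 0.23) missed the threshold, which it passed with median-ratio factors (0.0460), upper-quartile factors (0.0402), a filter of 1 CPM in 3 libraries (0.0451), without ruxolitinib replicate 2 (0.0371) and without the batch 2 pair (0.0291). Over all 17 alternatives its adjusted p was 0.0291 to 0.355. PMVK, which adds the next phosphate, had 7.88, 8.47 and 8.54 CPM with ruxolitinib, against 8.17, 7.37 and 8.73 CPM in control, and these values overlapped (log2 fold change 0.04 ± 0.11, adjusted p = 0.844).

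Isoprenoid diphosphates are the branch point between sterols and the lipids that anchor small GTPases, and 2 of the 3 genes measured around it rose. The share over all genes tested was 13.6%, and a set of 3 is too small to compare with it. IDI1, the isomerase of isopentenyl diphosphate, had 136, 147 and 123 CPM with ruxolitinib, against 88.7, 85.5 and 93.2 CPM in control (log2 fold change 0.60 ± 0.06, adjusted p = 2.44e-05). FDPS, which makes farnesyl diphosphate, had 86.3, 93.2 and 87.7 CPM with ruxolitinib, against 62.1, 59.6 and 62.2 CPM in control (0.54 ± 0.05, adjusted p = 8.94e-06). For both, the groups were apart. GGPS1, which extends farnesyl to geranylgeranyl diphosphate and so leads away from sterols, had 98.5, 102 and 89.5 CPM with ruxolitinib, against 96.3, 85.0 and 89.7 CPM in control. Its groups overlapped (log2 fold change 0.10 ± 0.06, adjusted p = 0.264), and it shares its locus with ARID4B on the other strand and TBCE on the same strand.

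FDFT1, squalene synthase and the first enzyme committed to sterols, had 201, 215 and 190 CPM with ruxolitinib, against 122, 113 and 119 CPM in control. This is a 1.71-fold change with no overlap (log2 fold change 0.77 ± 0.05, adjusted p = 7.28e-07). The next enzymes did not pass the threshold. SQLE, squalene epoxidase, a rate-limiting oxygen-dependent step, had 1312, 1373 and 1272 CPM with ruxolitinib, against 1420, 1355 and 1415 CPM in control. The groups overlapped (log2 fold change -0.08 ± 0.05, adjusted p = 0.206), and SQLE was lower when library totals alone set the scale (adjusted p = 0.0422) and without the batch 2 pair (0.0129), with adjusted p from 0.0129 to 0.665 over all 17 alternatives. LSS, which closes the lanosterol ring, had 11.9, 9.92 and 12.8 CPM with ruxolitinib, against 9.13, 17.1 and 9.69 CPM in control. Its control replicate 2 lay above every other library. The log2 fold change of -0.06 ± 0.27 (adjusted p = 0.886) became 0.29 without that library (adjusted p = 0.102) and 0.39 without the batch 2 pair (adjusted p = 0.00937). With other single libraries left out it was -0.20 to 0.03.

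SQLE stood apart by its level rather than by a change. Per kilobase of merged exon, it had 306 CPM with ruxolitinib and 324 CPM in control, and by CPM its control mean ranked 65th of the 14051 genes tested. INSIG1 came next among the 28, at 117 CPM per kilobase with ruxolitinib and 99.3 in control, then HMGCS1 at 68.2 and 32.0 and MSMO1 at 54.4 and 28.2. The lowest were MVK, at 0.323 CPM per kilobase with ruxolitinib and 0.204 in control, and TM7SF2, at 0.318 and 0.289.

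**Figure D2:**
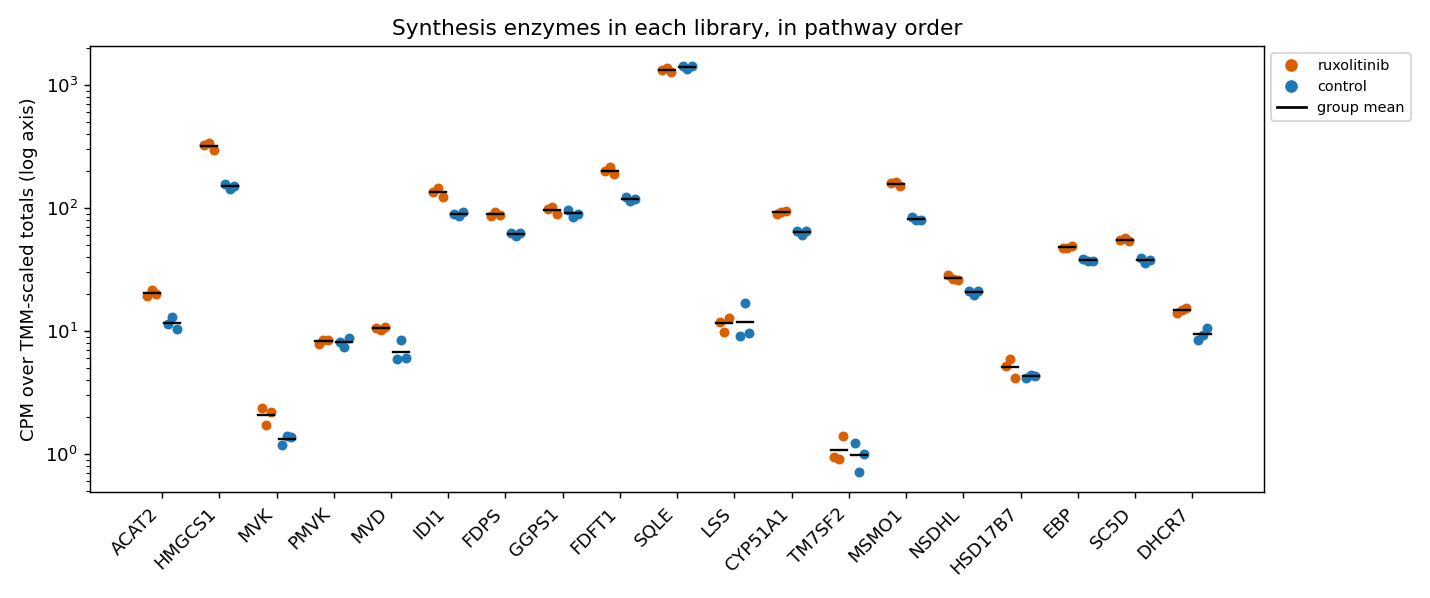
CPM over TMM-scaled totals (y axis, log scale) of the 19 synthesis enzyme genes in pathway order (x axis), with 1 point per library, ruxolitinib left of control, and the group mean as a bar. HMGCS1, FDFT1 and MSMO1 separate cleanly, SQLE sits highest at 1272 to 1373 CPM with ruxolitinib and 1355 to 1420 CPM in control, and 1 control library of LSS lies at 17.1 CPM.

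From lanosterol to cholesterol, 6 of the 8 genes measured rose (75%) and 2 did not pass, where 13.6% of all genes tested rose. MSMO1, the sterol C4-methyl oxidase (chromosome 4, 165327623 to 165343160), had 159, 163 and 150 CPM with ruxolitinib, against 84.7, 80.4 and 79.4 CPM in control. The ruxolitinib libraries all lay far above the control libraries, a 1.93-fold change (log2 fold change 0.95 ± 0.05, adjusted p = 5.52e-08). CYP51A1, which demethylates lanosterol, had 89.5, 93.4 and 95.04 CPM with ruxolitinib, against 65.0, 60.7 and 65.5 CPM in control (0.54 ± 0.05, adjusted p = 9.68e-06). SC5D, the C5-desaturase, had 55.1, 57.0 and 54.0 CPM with ruxolitinib, against 39.4, 35.7 and 38.1 CPM in control (0.56 ± 0.06, adjusted p = 2.13e-05). DHCR7, which makes cholesterol from its 7-dehydro precursor, had 14.0, 14.8 and 15.5 CPM with ruxolitinib, against 8.51, 9.36 and 10.6 CPM in control (0.64 ± 0.10, adjusted p = 0.000654). In each of these the lowest ruxolitinib library was above the highest control library.

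NSDHL and EBP changed less. NSDHL, a C4-decarboxylase that works with MSMO1, averaged 26.8 ± 1.302 CPM with ruxolitinib and 20.7 ± 0.947 CPM in control (SD, n = 3 each; log2 fold change 0.38 ± 0.07, adjusted p = 0.00201, but 0.0507 without the batch 1 pair). EBP, the sterol isomerase, averaged 47.9 ± 1.24 CPM with ruxolitinib and 37.8 ± 0.629 CPM in control (0.34 ± 0.05, adjusted p = 0.000536). HSD17B7, a sterol ketone reductase, had 5.20, 5.95 and 4.19 CPM with ruxolitinib, against 4.17, 4.38 and 4.34 CPM in control, with overlap (0.25 ± 0.16, adjusted p = 0.268). Its pseudogene HSD17B7P2 held counts equal to 25.4% of its own, and the split between the 2 is uncertain. TM7SF2, a sterol C14-reductase, had 0.945, 0.911 and 1.40 CPM with ruxolitinib, against 1.24, 0.717 and 0.999 CPM in control, from 17 to 26 reads in each ruxolitinib library and 18 to 23 in each control library. The groups overlapped (0.16 ± 0.31, adjusted p = 0.744), the change was -0.06 to 0.35 with single libraries left out, and the gene overlaps VPS51 on the same strand, which held 362.9% of its counts. LBR, which catalyses the same reduction and was chosen after its value was seen, averaged 102 CPM with ruxolitinib and 103 CPM in control.

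Of the 7 genes that control SREBP, 3 rose, 1 fell and 3 did not pass. These were shares of 42.9% higher and 14.3% lower, against 13.6% and 16.1% of all genes tested. SREBF2, which encodes SREBP-2, the main activator of the sterol enzymes (chromosome 22, 41833079 to 41907308), had 65.6, 56.5 and 65.6 CPM with ruxolitinib, against 34.6, 49.3 and 36.5 CPM in control. The groups did not overlap, and the replicates numbered 2 were the nearest to each other (log2 fold change 0.63 ± 0.14, adjusted p = 0.0188). Without control replicate 2 the change was 0.81 (adjusted p = 7.22e-07). The call was lost without ruxolitinib replicate 1 (adjusted p = 0.0568) or 3 (0.0759) and without the batch 1 pair (0.0764) or the batch 3 pair (0.166). SREBF1, which encodes SREBP-1, the activator of fatty acid genes, had 3.57, 2.57 and 3.87 CPM with ruxolitinib, against 2.54, 4.06 and 2.30 CPM in control, and overlaps RAI1 on the other strand. These values overlapped (0.16 ± 0.24, adjusted p = 0.676). The change was 0.46 without control replicate 2 (adjusted p = 0.133), 0.01 without control replicate 3 (0.982), 0.04 without ruxolitinib replicate 3 (0.937) and 0.31 without ruxolitinib replicate 2 (0.403). Without the batch 2 pair it was 0.62 (adjusted p = 0.0243), and without the batch 3 pair it was -0.12 (0.812), so its size and sign rest on which libraries are kept. Per kilobase of exon, SREBF2 was the more abundant, at 8.28 CPM with ruxolitinib and 5.31 in control, where SREBF1 had 0.415 and 0.370.

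SCAP had 5.25, 5.20 and 6.82 CPM with ruxolitinib, against 4.11, 5.74 and 3.43 CPM in control. Control replicate 2 again lay highest in its group, and the log2 fold change of 0.37 ± 0.20 (adjusted p = 0.189) was 0.61 without it (adjusted p = 0.0164) and 0.69 without the batch 2 pair (adjusted p = 0.00309). It was 0.23 without control replicate 3 (adjusted p = 0.446) or ruxolitinib replicate 3 (0.470) and 0.07 without the batch 3 pair (0.845). The log2 level of control replicate 2 over the mean of the other control libraries was 0.86 for LSS, 0.75 for SREBF1, 0.61 for SCAP, 0.49 for MVD and 0.47 for SREBF2, and -0.13 for HMGCS1. The cause of this gap was not tested.

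Both INSIG genes, the brakes on SCAP, rose with the enzymes. INSIG1 (chromosome 7, 155297776 to 155310235), itself a known SREBP target, had 422, 446 and 410 CPM with ruxolitinib, against 372, 350 and 365 CPM in control. The groups did not overlap, but the change was small (log2 fold change 0.23 ± 0.05, adjusted p = 0.00274, and 0.0628 without the batch 1 pair). INSIG2 had 37.3, 37.6 and 35.4 CPM with ruxolitinib, against 27.8, 26.7 and 25.4 CPM in control, apart in all libraries (0.47 ± 0.06, adjusted p = 0.000171). The Golgi proteases went the other way or did not pass. MBTPS2, the site-2 protease, had 18.6, 20.3 and 17.2 CPM with ruxolitinib, against 21.6, 21.4 and 23.2 CPM in control. The groups did not overlap (log2 fold change -0.24 ± 0.08, adjusted p = 0.0453), but the call lies at the threshold and was lost with the batch as a block (adjusted p = 0.117), by DESeq2 (0.197), with median-ratio factors (0.0628), with upper-quartile factors (0.0815), with no filter (0.0528), without ruxolitinib replicate 1 (0.131) or 3 (0.152), without control replicate 1 (0.0985) or 3 (0.199), and without the batch 1 pair (0.215) or the batch 3 pair (0.346). MBTPS1, the site-1 protease, had 61.6, 62.4 and 65.0 CPM with ruxolitinib, against 66.6, 68.8 and 69.6 CPM in control. No library crossed between groups (-0.12 ± 0.05, adjusted p = 0.0995, and 0.0368 with library totals alone, the lowest of 0.0368 to 0.377 over all 17 alternatives).

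**Figure D3:**
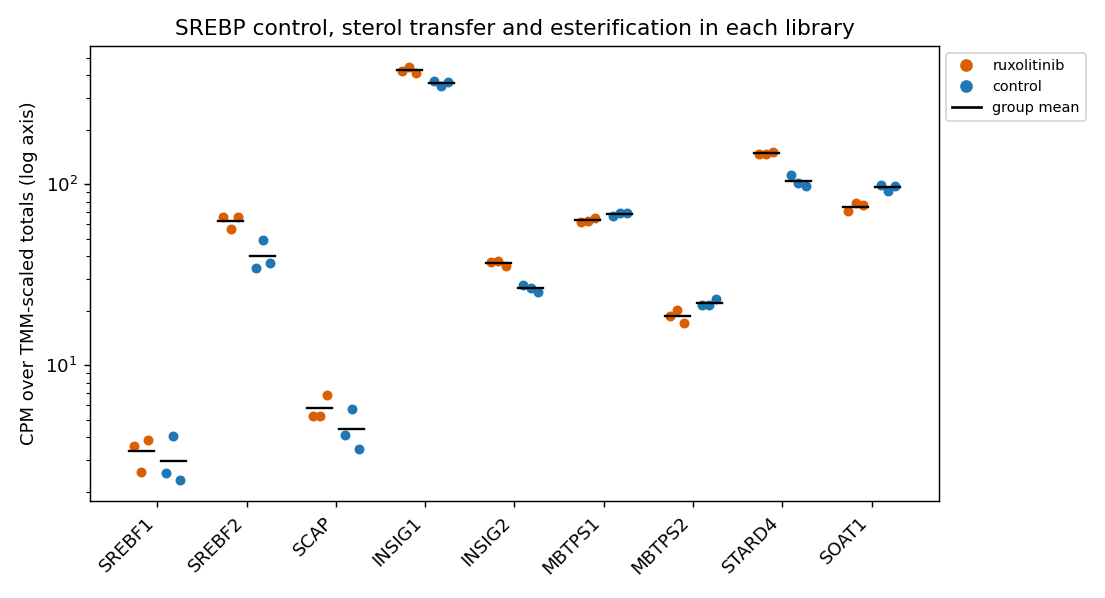
CPM over TMM-scaled totals (y axis, log scale) of the 7 SREBP control genes, STARD4 and SOAT1 (x axis), with 1 point per library, ruxolitinib left of control, and the group mean as a bar. SREBF2, INSIG1, INSIG2 and STARD4 lie higher with ruxolitinib and SOAT1 lower, and 1 control library of SREBF2 stands at 49.3 CPM above the others at 34.6 and 36.5 CPM.

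The genes for moving and storing free sterol moved in opposite directions. STARD4, a soluble carrier of cholesterol between membranes and a known SREBP-2 target, had 146, 147 and 151 CPM with ruxolitinib, against 112, 102 and 98.0 CPM in control (log2 fold change 0.51 ± 0.05, adjusted p = 2.39e-05). SOAT1, which esterifies cholesterol for lipid droplets in macrophages (chromosome 1, 179293714 to 179358680), had 70.7, 78.2 and 76.3 CPM with ruxolitinib, against 98.2, 91.9 and 97.1 CPM in control. It was lower in all ruxolitinib libraries (log2 fold change -0.35 ± 0.05, adjusted p = 0.000423). Its relative SOAT2 was not tested, with at most 0.0398 CPM in a control library and 0 in every ruxolitinib library, where 3 reads would be 0.1558 to 0.1596 CPM.

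**Figure D4:**
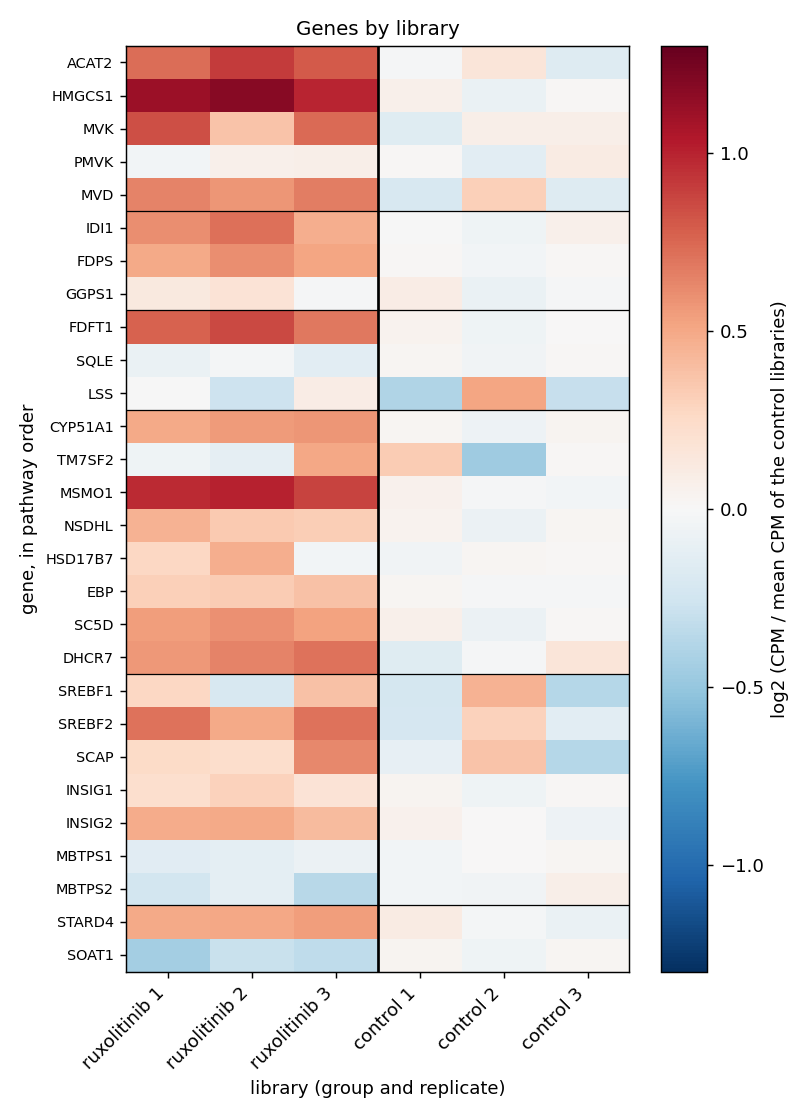
Log2 of the CPM over the mean CPM of the control libraries (colour) for the 28 genes (rows, in pathway order) in each library (columns, ruxolitinib left of control). The synthesis enzymes are mostly red in the 3 ruxolitinib columns, and control replicate 2 is red for LSS, SREBF1, SCAP, MVD and SREBF2.

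Ratios of raw counts between paired genes within a library do not depend on how libraries are scaled. For 7 such ratios an exact two-sided permutation test over libraries was run, in which 3 against 3 cannot give a p below 0.1. The log2 ratio of FDFT1 to GGPS1, the sterol and the geranylgeranyl exits from farnesyl diphosphate, was 1.03, 1.07 and 1.08 with ruxolitinib, against 0.34, 0.41 and 0.41 in control. The difference was 0.67, with no overlap (exact permutation p = 0.1, adjusted over the 7 ratios 0.117). FDPS over GGPS1 differed by 0.44, cytosolic ACAT2 over its mitochondrial relative ACAT1 by 0.92, and SOAT1 over STARD4 by -0.86, each without overlap and with the same p. INSIG1 over INSIG2 was lower with ruxolitinib, at 3.50, 3.57 and 3.53 against 3.75, 3.71 and 3.84 in control (difference -0.23, exact permutation p = 0.1). SREBF1 over SREBF2 differed by -0.46 without overlap (exact permutation p = 0.1). MBTPS1 over MBTPS2 differed by 0.12 with overlap (exact permutation p = 0.3).

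**Figure D5:**
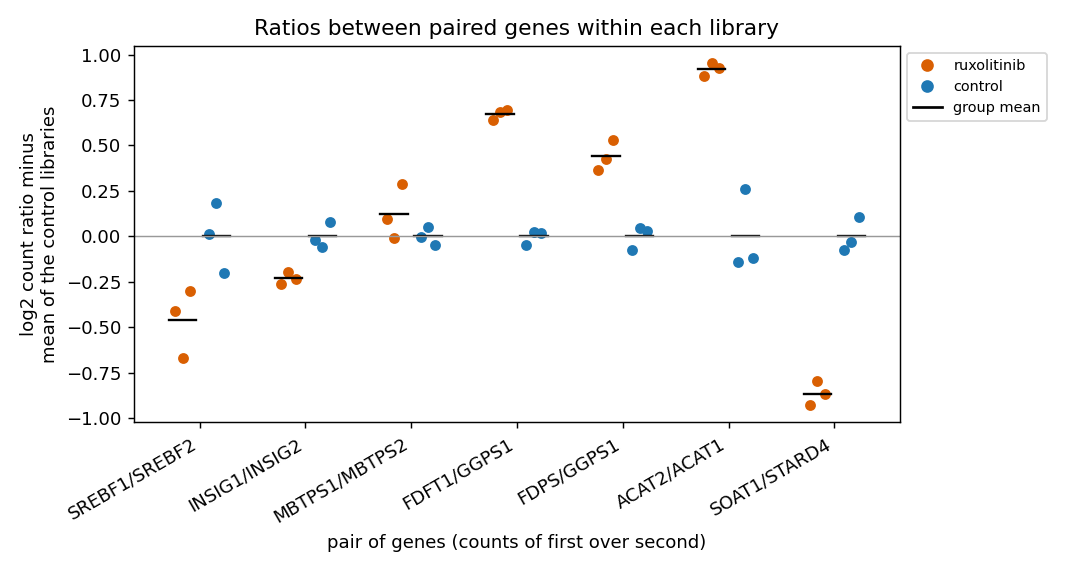
Log2 ratio of raw counts of paired genes in each library minus the mean of the control libraries (y axis) for 7 pairs (x axis), with ruxolitinib left of control and the group mean as a bar. ACAT2/ACAT1 and FDFT1/GGPS1 differ by 0.92 and 0.67, SOAT1/STARD4 by -0.86, and MBTPS1/MBTPS2 overlaps between groups.

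Genes around the pathway, taken from lists chosen with earlier results of these data known, did not all move with the enzymes. Of 16 further factors of sterol synthesis and SREBP control, 6 rose (37.5%), 1 fell (6.25%) and 9 did not pass, against 13.6% and 16.1% of all genes tested. RNF145, a ubiquitin ligase of the endoplasmic reticulum, had 153, 158 and 150 CPM with ruxolitinib, against 109, 106 and 107 CPM in control (log2 fold change 0.52 ± 0.04, adjusted p = 3.99e-06). ERG28, known from Saccharomyces cerevisiae as a scaffold of the sterol C4-demethylation enzymes, averaged 11.8 ± 0.523 CPM with ruxolitinib and 6.93 ± 0.708 CPM in control (0.77 ± 0.11, adjusted p = 0.000278). TMEM97, a sterol-regulated membrane protein, had 0.71 ± 0.18 (adjusted p = 0.0109, but 0.0530 without ruxolitinib replicate 1 and 0.118 without the batch 1 pair). PAQR3, a Golgi protein that binds SCAP, fell by 0.22 ± 0.07 on the log2 scale (adjusted p = 0.0325) and was chosen after its value was seen, and this call was lost under 9 alternatives (adjusted p 0.0637 to 0.347).

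Genes of prenylation, dolichol and ubiquinone, the uses of isoprenoids, showed no call in the direction of the sterol enzymes. Their list also holds processing and escort proteins, with the protease gene ZMPSTE24 among the lower calls. Among the 14 that could be tested, edgeR called 0 higher and 5 lower (35.7%), against 13.6% and 16.1% of all genes tested. The other 9 fell short of the threshold, and the median log2 fold change of the 14 was -0.13. At an unadjusted p under 0.05, by DESeq2 or by limma-voom, 0 rose. COQ2, which attaches the side chain of ubiquinone, averaged 16.6 ± 0.793 CPM with ruxolitinib and 22.6 ± 1.36 CPM in control (log2 fold change -0.45 ± 0.08, adjusted p = 0.00115). DHDDS, of dolichol synthesis, had -0.42 ± 0.07 (adjusted p = 0.00117). RABGGTA, a subunit of the Rab geranylgeranyl transferase, had -0.56 ± 0.15 (adjusted p = 0.0133), a call lost without ruxolitinib replicate 1 (0.0701), without control replicate 3 (0.0508) and without the batch 1 pair (0.138).

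Of 14 tested genes of sterol transport and lipoprotein uptake, 3 rose (21.4%), 2 fell (14.3%) and 9 did not pass, shares near the 13.6% and 16.1% of all genes tested. The lipoprotein receptor gene VLDLR had 44.8, 42.0 and 43.8 CPM with ruxolitinib, against 23.4, 23.2 and 24.98 CPM in control, a 1.82-fold change without overlap (adjusted p = 8.67e-07). OSBP, which exchanges cholesterol and phosphoinositide between the endoplasmic reticulum and the Golgi, was higher by 0.55 ± 0.05 on the log2 scale (adjusted p = 6.12e-06). NCEH1, a cholesteryl ester hydrolase, fell by 0.50 ± 0.09 on the log2 scale (adjusted p = 0.00103, but 0.0505 without the batch 1 pair), the same direction as SOAT1. GRAMD1A, which carries plasma membrane cholesterol inward and was chosen after its value was seen, averaged 15.5 ± 1.27 CPM with ruxolitinib and 7.72 ± 1.98 CPM in control (log2 fold change 1.00 ± 0.16, adjusted p = 0.00105).

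Of 9 tested fatty acid targets of SREBP-1, 4 rose (44.4%), 1 fell (11.1%) and 4 did not pass. Among all genes tested, 13.6% rose and 16.1% fell. The desaturase gene SCD had 284, 264 and 274 CPM with ruxolitinib, against 151, 149 and 157 CPM in control (log2 fold change 0.85 ± 0.05, adjusted p = 7.54e-08). FADS1, a polyunsaturated fatty acid desaturase, had 0.30 ± 0.05 (adjusted p = 0.000604). LPIN1, a phosphatidate phosphatase, had -0.26 ± 0.06 (adjusted p = 0.00729, but 0.0583 without control replicate 3, and 0.0803 and 0.0627 without the pair of batch 1 or 3).

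Oxysterol enzymes, LXR genes and sterol exporters, the counterweight to synthesis, were lower where they passed. Among the 7 that could be tested, edgeR called 0 higher and 3 lower (42.9%), against 13.6% and 16.1% of all genes tested. The other 4 fell short of the threshold, and the median log2 fold change of the 7 was -0.45. At an unadjusted p under 0.05 the rises numbered 1, by DESeq2 1 and by limma-voom 0. NR1H3, which encodes LXR-alpha, had 1.89, 1.98 and 1.40 CPM with ruxolitinib, against 4.17, 4.10 and 3.91 CPM in control (log2 fold change -1.20 ± 0.19, adjusted p = 0.000414), with no overlap. NR1H2, which encodes LXR-beta, was more abundant, at 33.1, 32.3 and 31.8 CPM with ruxolitinib, against 20.2, 31.4 and 22.5 CPM in control. It was higher without overlap but short of the threshold (0.38 ± 0.15, adjusted p = 0.110). So was CYP7B1 (0.58 ± 0.28, adjusted p = 0.150), while CYP27A1 (-0.38, 0.513) and ABCG1 (-0.76, 0.0567) were lower and also short of it. These were named after their values were seen. The exporter gene ABCA1 averaged 344 ± 17.1 CPM with ruxolitinib and 470 ± 11.97 CPM in control (-0.45 ± 0.05, adjusted p = 2.36e-05). HSD3B7, of bile acid synthesis, had -1.09 ± 0.33 (adjusted p = 0.0253), a call lost by DESeq2 (0.119), with the batch as a block (0.0572), and, at 0.0624 to 0.185, without any ruxolitinib library, without control replicate 2 and without any batch pair. CH25H, the interferon-inducible cholesterol 25-hydroxylase, was not tested: it had 1 read in control replicate 3 and 0 in every other library.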

How the data were processed

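Poly-A-selected RNA of 6 THP-1 libraries was analysed, 3 with ruxolitinib and 3 control. Per gene, the authors deposited raw counts of reads, with build hg38 per the submitters' processing notes. Which aligner, counter, annotation and strand setting made them is not given in the sources used here. Every row names a gene.

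Tests used edgeR 4.0.16 in R 4.3.3 (glmQLFit, robust, and glmQLFTest) with TMM factors and filterByExpr (minimum count 10, minimum total 15). Levels are CPM over TMM-scaled totals, and SEs come from the coefficient and its F statistic. Exon lengths and gene positions came from GENCODE 29 (GRCh38), which held all 28 genes and 58296 of 61517 identifiers. A count of 0 allows up to 3 counts, for counting error only.

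The genes and lists were chosen with earlier results of these data known. Per-library values were given for the 12 largest changes past the threshold, for the SREBP control, transfer and esterification genes and for genes that did not pass with a mean of at least 1 CPM. Up to 3 genes per further list were named by smallest adjusted p, plus CH25H. The batch numbers pair the libraries by label alone: deviations of same-numbered libraries had correlations of -0.02, -0.19 and -0.10. The block was an alternative, beside other scalings, filters, DESeq2 1.42.0, limma-voom (limma 3.58.1) and leaving out libraries. The procedure was also run on simulated counts in which far fewer genes changed than were called here, so that run is no check on these calls.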

Additional observations from a re-analysis of the deposited data

How the results depend on the processing

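The count of 16 higher genes was 12 to 20 over 17 alternatives, and 13 of the 18 genes that passed did so under each of them. The count of 2 lower genes was 1 with median-ratio factors, upper-quartile factors, no filter, DESeq2, the batch as a replicate block, and without the pair of batch 1 or 3. It was 3 without the batch 2 pair and 4 with library totals alone. It ranged from 1 to 2 when a single library was left out. The median log2 fold change of the 28 genes, 0.42, was 0.39 with library totals alone, 0.46 with upper-quartile factors, 0.43 with the replicate block, 0.46 and 0.49 without the pair of batch 1 and of batch 2, and 0.43 to 0.48 with a single library left out. LSS reversed to 0.39 without the batch 2 pair, which holds its highest control library and its lowest ruxolitinib library. Over all genes, 4175 passed (1908 higher, 2267 lower), 1983 without the batch 1 pair (840 higher, 1143 lower) and 2915 with the block, which removes degrees of freedom. The 7 ratios kept their direction under every alternative run, and within batch pairs the sign-flip test cannot give a p below 0.25. Among the 28 genes the block changed the MBTPS2 call and no other. TM7SF2, MVK, HSD17B7, SREBF1 and SCAP, each under 7 CPM in every library, rest on few reads, and whether depth set their calls was not tested.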

Other observations

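Several of the 28 genes share a start region with a protein-coding gene read from the other strand, within 1000 bases. All 5 such partners were tested, and 2 rose, where 13.6% of all genes tested rose. A set of 5 genes is too small to compare with that share. WDR37, opposite IDI1, averaged 44.3 CPM with ruxolitinib and 34.8 CPM in control (log2 fold change 0.35, edgeR adjusted p = 0.00323, but 0.0559 without the batch 1 pair). CETN2, opposite NSDHL and a centrosome protein gene, averaged 26.3 CPM with ruxolitinib and 21.6 CPM in control (0.28, adjusted p = 0.0193), a call lost under 5 alternatives (0.0556 to 0.0958). MMAB, of cobalamin metabolism and opposite MVK, had 0.33 (adjusted p = 0.261), ARID4B, opposite GGPS1, had -0.02 (0.745) and NADSYN1, which makes NAD and lies opposite DHCR7, had -0.16 (0.208), while DHCR7 itself rose.

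The antisense gene AC114947.2, which overlaps HMGCS1, rose more than HMGCS1 did on the log2 scale, at 9.61 CPM with ruxolitinib and 3.40 CPM in control (log2 fold change 1.503, adjusted p = 5.36e-06). The difference between the 2 changes was not tested. Its counts came to 2.73% of those of HMGCS1, and without a stated strand setting reads of the pair cannot be told apart. The pseudogene HSD17B7P2 averaged 1.58 CPM with ruxolitinib and 0.825 CPM in control (0.91, adjusted p = 0.0275, a call lost under 8 alternatives at 0.0523 to 0.188), where HSD17B7 did not pass. Both genes were chosen after their values were seen.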
